A study of Sus scrofa with 23 samples.

Results

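RNA of 8 genes of cholesterol synthesis and its control was examined in the kidney cortex of newborn pigs. These were HMGCS1, IDI1, FDFT1, SQLE, LSS, DHCR7, SREBF2 and INSIG1. The genes were chosen by name, and their estimated counts were summed per gene symbol out of 26687 symbols in all. Of the 8 genes, 7 were found under the listed symbol and the eighth, IDI1, was found as LOC100625049, whose RefSeq product is isopentenyl-diphosphate Delta-isomerase 1. Total RNA depleted of ribosomal RNA was sequenced from 23 pigs, 1 library per pig. There were 11 CF pigs, in which both CFTR alleles were disrupted (CFTR-/-), 6 HET pigs with 1 disrupted allele (CFTR+/-) and 6 WT pigs (CFTR+/+). HET and WT were also pooled as 12 non-CF pigs. The piglets came from heterozygous parents and were not inbred. The labels give neither sex nor litter for a library, and no treatment was listed for any group. The pigs were germline animals, so CFTR was disrupted in every cell type of the cortex, and no single cell type was isolated.

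Cholesterol is built from acetyl-CoA through the mevalonate pathway, which ends in farnesyl diphosphate, and then through squalene and a series of sterol intermediates. The enzymes of this route are controlled together by SREBP-2, a membrane-bound transcription factor encoded by SREBF2. When cell cholesterol is low, SREBP-2 is escorted to the Golgi, cut and released to the nucleus, where it acts through sterol regulatory elements in the promoters of the enzyme genes. When sterols are plentiful, INSIG proteins hold it in the endoplasmic reticulum. The kidney makes part of its own cholesterol and also takes it up from lipoproteins.

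The 300 bases before the annotated gene start of 4 of the genes are shown with the matches to short control elements that were searched for in them. HMGCS1 and SREBF2 held a match to the sterol regulatory element sequence searched for, and LSS and DHCR7 had the smallest p-values of the 8 genes between CF and non-CF pigs but held no such match. Sequences are from the RefSeq pig genome Sscrofa11.1, 5′ to 3′ on the strand of the gene. Capitals mark matches on either strand to the sterol element (TCACNCCAC), the CCAAT box bound by NF-Y (CCAAT) and the GC box bound by Sp1 (GGGCGG).
HMGCS1: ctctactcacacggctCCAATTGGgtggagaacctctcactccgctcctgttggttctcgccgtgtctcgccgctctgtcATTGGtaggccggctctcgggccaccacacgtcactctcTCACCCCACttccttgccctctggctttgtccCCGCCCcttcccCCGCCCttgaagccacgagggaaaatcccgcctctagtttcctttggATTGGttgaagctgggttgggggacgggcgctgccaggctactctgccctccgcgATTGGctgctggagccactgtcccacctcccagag
SREBF2: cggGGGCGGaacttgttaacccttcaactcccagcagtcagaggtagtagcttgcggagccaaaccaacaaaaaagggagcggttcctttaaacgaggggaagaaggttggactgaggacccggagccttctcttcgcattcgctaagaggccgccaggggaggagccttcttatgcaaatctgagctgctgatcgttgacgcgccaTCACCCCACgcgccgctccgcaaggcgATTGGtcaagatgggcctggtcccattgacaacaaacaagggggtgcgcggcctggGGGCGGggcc
LSS: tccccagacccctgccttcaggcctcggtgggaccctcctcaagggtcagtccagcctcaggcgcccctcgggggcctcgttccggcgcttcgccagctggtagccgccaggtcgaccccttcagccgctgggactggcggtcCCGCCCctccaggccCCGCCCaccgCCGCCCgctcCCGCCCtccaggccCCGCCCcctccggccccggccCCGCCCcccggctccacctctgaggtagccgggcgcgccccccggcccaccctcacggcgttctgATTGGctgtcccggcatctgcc
DHCR7: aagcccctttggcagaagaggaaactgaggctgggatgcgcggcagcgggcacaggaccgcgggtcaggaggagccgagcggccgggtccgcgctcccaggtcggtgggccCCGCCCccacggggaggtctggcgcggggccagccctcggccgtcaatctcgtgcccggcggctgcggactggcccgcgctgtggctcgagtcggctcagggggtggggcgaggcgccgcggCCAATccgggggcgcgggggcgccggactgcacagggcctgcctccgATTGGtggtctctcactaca
The window of HMGCS1 was chr16:27957262-27957561 (minus strand), that of SREBF2 chr5:6784725-6785024 (minus strand) and that of DHCR7 chr2:2377052-2377351 (plus strand). The window of LSS was at 519282 to 519581 (plus strand) of a scaffold not placed on a chromosome. In HMGCS1 the sterol element match lay 181 to 173 bases before the start, and in SREBF2 it lay 93 to 85 bases before it. In HMGCS1 a forward and a reverse CCAAT match overlap in the run CCAATTGG.

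A sterol element match was present in 3 of the 8 windows (HMGCS1, SQLE and SREBF2) and in 0.915% of the windows of 20663 protein-coding genes. A CCAAT box was present in 8 of 8 windows against 35.9% of all windows, and a GC box in 8 of 8 against 46.1%. The E-box CACGTG was found in 2 of 8 (IDI1 and INSIG1) against 7.07%. GC content was 62.7% in HMGCS1, 59.7% in SREBF2, 77.3% in LSS and 75.0% in DHCR7. A match is a run of letters and not evidence of binding, and the lack of one says only that these letters are not in this window.

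The libraries held 32901281 to 52952273 estimated counts, and the 8 genes had at least 419 counts in every library. All 8 passed the filter on low counts, as did 20921 genes in total. CFTR, the disrupted gene, was at 2.26 ± 0.794 CPM (counts scaled to a common library size; SD, n = 6) in WT, 12.6 ± 2.76 (n = 6) in HET and 19.9 ± 3.21 (n = 11) in CF. Its RNA was thus higher, not lower, in the libraries labelled CF, and CF, HET and WT below refer to the labels. Markers of the proximal tubule, the main cell type of kidney cortex, summed to 7083 to 14053 CPM over all libraries. The pigs were divided by number into an earlier set (pigs 1 to 6 and 12 to 18, 13 libraries) and a later set (pigs 7 to 11 and 19 to 23, 10 libraries). Each set held all 3 genotypes. The labels give the numbers but not the sets. An earlier analysis of these data found that libraries split in this way, so a difference between the sets is not independent evidence. The names of the sets refer to pig numbers and not to known dates.

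On a scale per transcript length (TPM, each library scaled to the same sum), FDFT1 was the most abundant of the 8 genes in WT cortex at 62.7 ± 13.97 TPM (SD, n = 6), followed by IDI1 at 56.3 ± 16.9 TPM. A transcript annotated as non-coding took 45.5% of the IDI1 value in WT, so this second place does not hold for its mRNA alone. SREBF2 at 39.4 ± 5.27, LSS at 36.4 ± 3.74 and HMGCS1 at 30.7 ± 8.31 TPM came next. SQLE at 21.4 ± 5.11, INSIG1 at 20.4 ± 4.73 and DHCR7 at 10.7 ± 1.73 TPM were the lowest. The steps from HMGCS1 to SQLE and from INSIG1 to DHCR7 were larger than the SD of either gene, and the other neighbours in this order differed by less than the larger of their SDs. TPM are not used for comparisons between genotypes because a single non-coding RNA took 42.1% to 53.2% of all TPM.

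All 8 genes had a lower fitted level in CF than in non-CF pigs, by 0.09 (INSIG1) to 0.52 (IDI1) on the log2 scale. None passed the threshold of 0.05 after adjustment over all genes. The count of IDI1 includes a transcript annotated as non-coding. With mRNA transcripts alone the log2 difference was -0.33 in IDI1 and -0.51 in LSS. The quasi-likelihood test of edgeR, adjusted after Benjamini and Hochberg over all genes, called 0 of the 8 and 73 of the 20921 genes tested (0.349%). At an unadjusted p under 0.05, 3 of 8 were lower (IDI1, LSS and DHCR7) against 6.36% of all genes. DESeq2 called LSS and DHCR7, but it called 488 genes in all (2.33%), while limma-voom and the Mann-Whitney test called none of the 8. The median log2 difference of the 8 genes was -0.34, and that of all genes tested was -0.000517. In bulk RNA, fewer cells of a type and less RNA per cell cannot be told apart.

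**Figure D1:**
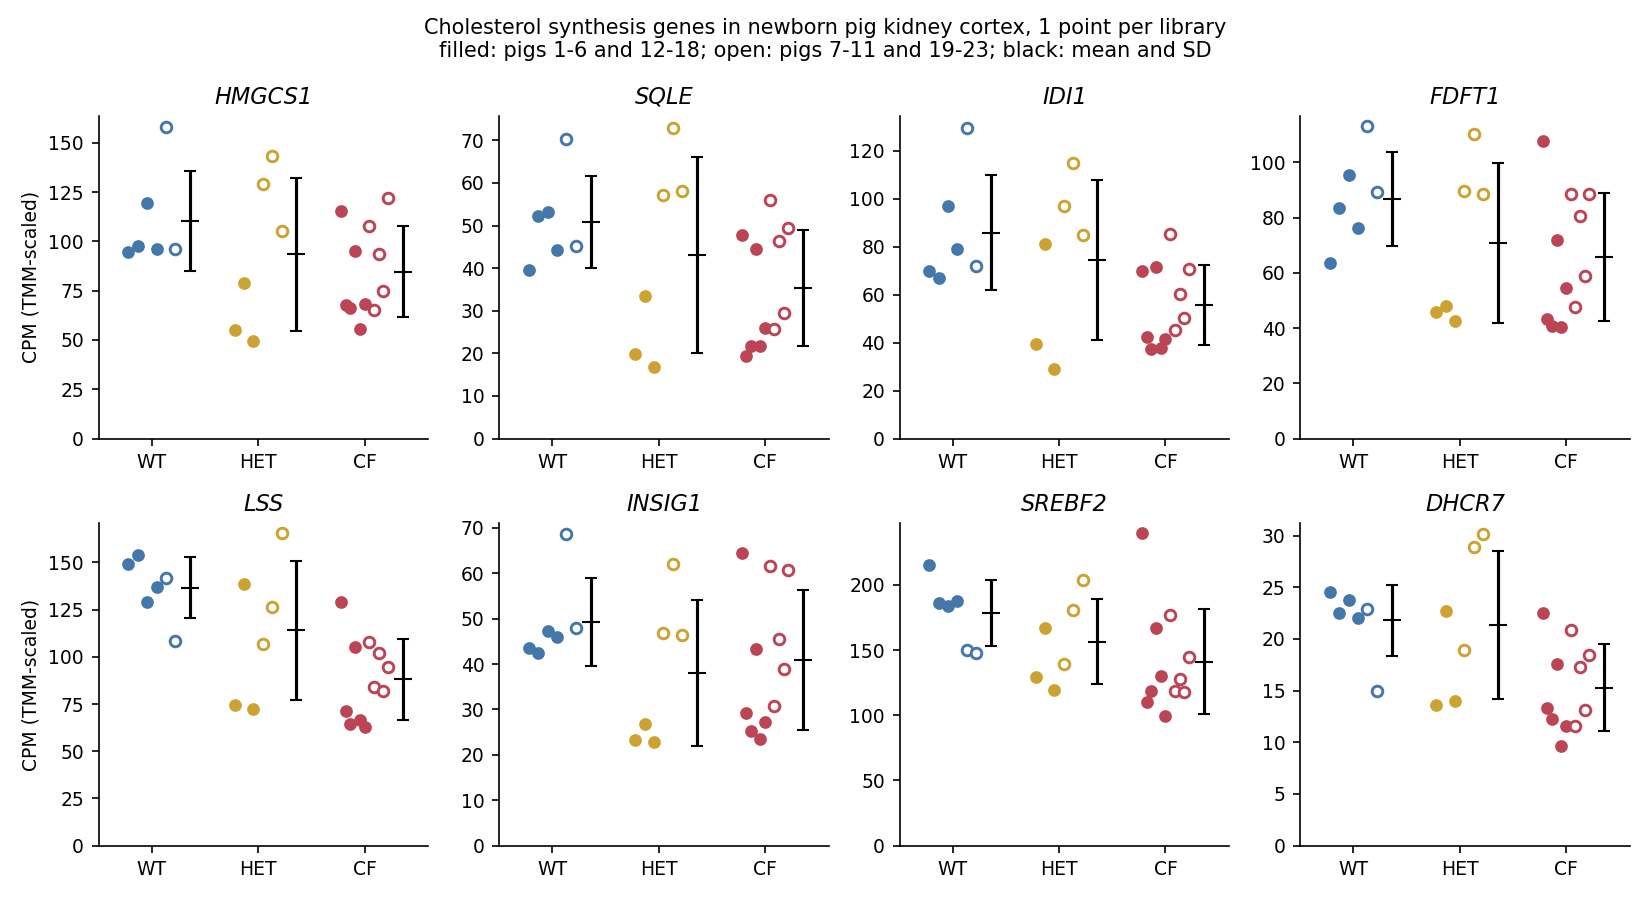
CPM of each of the 8 genes by genotype: 1 point per pig, filled for the earlier and open for the later set of pig numbers, with the group mean and SD as a black bar. LSS is the gene in which CF and WT overlap least, with 10 of 11 CF pigs below the lowest WT pig.

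HMGCS1 and IDI1 belong to the mevalonate pathway. HMGCS1 (gene ID 100524223, chr16:27936225-27957261) is the cytosolic HMG-CoA synthase, an early step of the pathway. Its level was 94.4, 96.8 and 158 CPM (lowest, median, highest) in WT, 49.6, 92.0 and 143 CPM in HET, and 55.5, 74.8 and 122 CPM in CF. WT pig 22 was the highest of all, 7 of 11 CF pigs lay below the lowest WT pig, and every CF pig lay within the non-CF range. The log2 difference of CF from non-CF was -0.27 (SE 0.170, edgeR p = 0.128, adjusted p = 0.520). IDI1 (gene ID 100625049, chr10:68534520-68539279) interconverts isopentenyl and dimethylallyl diphosphate, the isoprene units. Its level was 66.9, 75.6 and 129 CPM in WT, 29.2, 83.2 and 115 CPM in HET, and 37.3, 50.4 and 85.3 CPM in CF. The difference of CF from non-CF on the log2 scale was -0.52 (SE 0.194, 95% interval -0.93 to -0.12, edgeR p = 0.0122, adjusted p = 0.210). This count includes a transcript annotated as non-coding, and with the 2 mRNA transcripts alone the difference was -0.33 (SE 0.103, edgeR p = 0.00363, adjusted p = 0.130). The CF range lay inside the non-CF range, since HET pig 15 lay below all CF pigs, and 7 of 11 CF pigs lay below the lowest WT pig.

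SQLE and FDFT1 act just before LSS. FDFT1 (gene ID 100312971, chr14:14976259-15010701) encodes squalene synthase, which commits farnesyl diphosphate to sterols. Its level was 63.7, 86.3 and 113 CPM (lowest, median, highest) in WT, 42.7, 68.3 and 110 CPM in HET, and 40.3, 58.8 and 108 CPM in CF. Of the CF pigs, 6 of 11 lay below the lowest WT pig, and CF pig 1 lay near the top of the WT range. On the log2 scale CF differed from non-CF by -0.26 (SE 0.187, edgeR p = 0.174, adjusted p = 0.585). SQLE (gene ID 100113409, chr4:14669789-14700152), squalene epoxidase, is a rate-limiting step of the sterol branch. Its level was 39.6, 48.7 and 70.3 CPM in WT, 16.7, 45.4 and 72.9 CPM in HET, and 19.4, 29.6 and 56.1 CPM in CF. The CF range lay wholly inside the non-CF range, with 6 of 11 CF pigs below the lowest WT pig. CF differed from non-CF on the log2 scale by -0.41 (SE 0.226, edgeR p = 0.0815, adjusted p = 0.437).

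LSS (lanosterol synthase, gene ID 100625138, unplaced scaffold 519582 to 554042) closes squalene epoxide into lanosterol, the first sterol. Its level was 109 (lowest), 139 (median) and 154 (highest) CPM in WT, 72.2, 117 and 166 CPM in HET, and 63.0, 84.1 and 129 CPM in CF. All 11 CF pigs lay below the non-CF median and 10 of 11 below the lowest WT pig, while CF pig 1, at the CF maximum, reached into the WT range. Means were 137 ± 16.3 (n = 6), 114 ± 36.8 (n = 6) and 88.2 ± 21.5 CPM (SD, n = 11). The log2 difference of CF from non-CF was -0.51 (SE 0.140, 95% interval -0.80 to -0.22), or 0.704-fold, with an edgeR p of 0.00127 and an adjusted p of 0.0903. The adjusted p was 0.0239 with DESeq2, 0.0463 without HET pig 13 (150 genes called) and 0.0392 without HET pig 15 (195 genes called). It reached 0.421 in the earlier set alone. Against WT alone the log2 difference was -0.63 (SE 0.164, edgeR p = 7.23e-04, adjusted p = 0.0740). This adjusted p was below 0.05 with DESeq2 (0.0156, where 2.75% of all genes were called) and with upper-quartile scaling (0.0338, 139 genes called). It was also below 0.05 with the set of pig numbers as a term (0.0493, 186 genes called). The same held without WT pig 23 (0.0459, 194 genes called) or CF pig 1 (0.0476).

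DHCR7 (7-dehydrocholesterol reductase, gene ID 100627707, chr2:2377352-2391846) carries out the last step to cholesterol and draws on the precursor of vitamin D. Its level was 15.01, 22.7 and 24.5 CPM (lowest, median, highest) in WT, 13.6, 20.8 and 30.1 CPM in HET, and 9.68, 13.4 and 22.5 CPM in CF. All 11 CF pigs lay below the non-CF median, and 6 of 11 lay below every non-CF pig. The lowest WT value was that of WT pig 23, and the 2 lowest HET values were those of pigs 13 and 15. Means were 21.8 ± 3.43, 21.4 ± 7.17 and 15.3 ± 4.23 CPM (SD, n = 6, 6 and 11). The log2 difference of CF from non-CF was -0.50 (SE 0.150, 95% interval -0.81 to -0.19), or 0.708-fold, with an edgeR p of 0.00272 and an adjusted p of 0.117. DESeq2 gave an adjusted p of 0.0409. Against WT alone it was -0.51 (SE 0.182, adjusted p = 0.189 by edgeR).

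The 2 regulators had the smallest log2 differences of CF from non-CF. SREBF2 (gene ID 396675, chr5:6719484-6784724), which encodes SREBP-2, was at 147, 185 and 215 CPM (lowest, median, highest) in WT, 119, 153 and 204 CPM in HET, and 99.4, 128 and 240.0 CPM in CF. The highest CPM of all was that of CF pig 1, whereas 8 of the other CF pigs lay below the lowest WT pig. CF pig 1 had the lowest TMM scaling factor of all libraries (0.883). By TPM its SREBF2 level (41.9) lay below those of WT pigs 12 (45.0) and 18 (45.1). The part of this scaling was not tested. The log2 difference of CF from non-CF was -0.25 (SE 0.127, edgeR p = 0.0618, adjusted p = 0.395). INSIG1 (gene ID 403162, chr18:2885494-2898758), which retains SREBPs and is itself a target of them, was at 42.5, 46.6 and 68.6 CPM in WT, 22.9, 36.5 and 62.0 CPM in HET, and 23.5, 38.8 and 64.5 CPM in CF. Its 6 lowest CF pigs lay below the lowest WT pig, and the WT pigs other than pig 22 lay within a narrow range. The log2 difference of CF from non-CF was -0.09 (SE 0.197, edgeR p = 0.636, adjusted p = 0.894), the smallest of the 8, with a 95% interval of -0.50 to 0.32. It was -0.02 without WT pig 22 and -0.18 without CF pig 1.

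Compared with WT alone, all 8 genes had a lower fitted level in CF, with a median log2 difference of -0.46 and a range of -0.63 (LSS) to -0.27 (INSIG1). By edgeR with TMM scaling none was called after adjustment, against 73 of all genes (0.349%). LSS was called with DESeq2 (576 genes in all), upper-quartile scaling (139) and the set term (186), as given above. In the same edgeR test 4 of 8 (LSS, DHCR7, IDI1 and SREBF2) had an unadjusted p under 0.05 and were lower, against 6.51% of all genes. IDI1 differed by -0.62 (SE 0.233, edgeR adjusted p = 0.211), or by -0.45 (SE 0.117, adjusted p = 0.0753) with its mRNA transcripts alone, and SREBF2 by -0.34 (SE 0.152, adjusted p = 0.307). Comparisons of CF with non-CF and with WT share the CF and WT pigs and are not separate evidence. All 8 genes stayed lower in CF than in non-CF and than in WT in 9 of 9 alternative analyses and with each of the 23 libraries left out.

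HET pigs had a lower fitted level than WT in all 8 genes, from -0.03 (DHCR7) to -0.38 (INSIG1) on the log2 scale. None had an adjusted p under 0.05 by edgeR, as against 1 gene in all (0.00478%), and none had an unadjusted p under 0.05, as against 3.88% of all genes that were lower. LSS differed by -0.26 (SE 0.189, adjusted p = 0.750) and SREBF2 by -0.19 (SE 0.174, adjusted p = 0.813). In the earlier set alone the differences of HET from WT were larger, from -0.47 (DHCR7) to -1.03 (SQLE, edgeR p = 0.00496, adjusted p = 0.335). In the later set alone they ran from -0.16 (INSIG1) to 0.47 (DHCR7). None of the 8 was called in either set. CF was compared with HET directly as well, and 7 of the 8 genes were lower in CF, with INSIG1 at 0.11 above HET. No gene at all was called in this comparison by edgeR (0%), 2069 genes had an unadjusted p under 0.05 and DESeq2 called 65. Among the 8, LSS (-0.37, SE 0.165, p = 0.0335, adjusted p = 0.462) and DHCR7 (-0.48, SE 0.182, p = 0.0136, adjusted p = 0.393) were lower at an unadjusted p under 0.05, against 4.34% of all genes. For LSS, HET thus lay between WT and CF by its mean, but neither neighbour differed from it after adjustment.

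**Figure D2:**
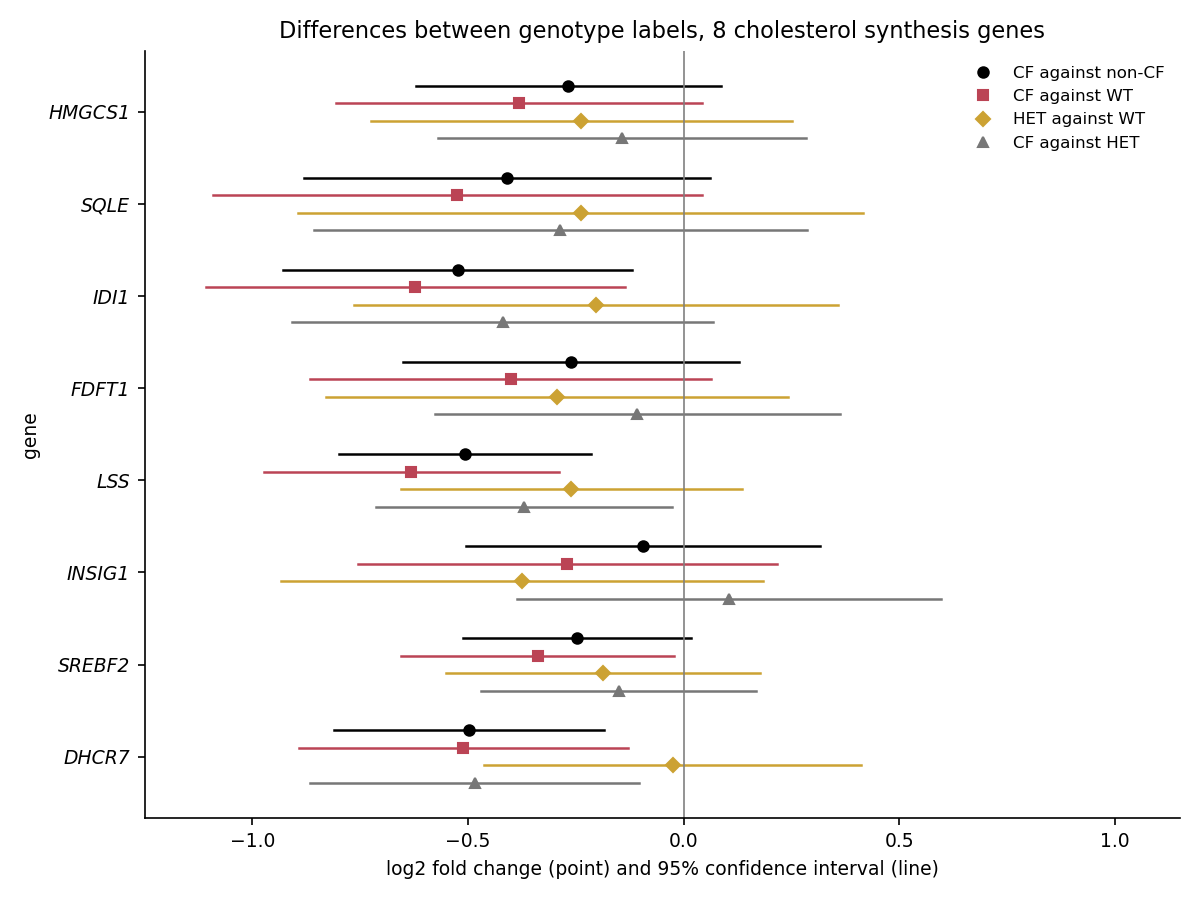
Log2 differences of the 8 genes for CF minus non-CF, CF minus WT, HET minus WT and CF minus HET; points are edgeR estimates, bars are 95% intervals, and the line at 0 marks no difference. The intervals of LSS and DHCR7 exclude 0 for CF against non-CF, WT and HET, and no interval excludes 0 for HET against WT.

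The HET pigs split by the set of pig numbers, a division that was itself read from these data. In SQLE the 3 earlier HET pigs (13, 14 and 15) were at 19.8, 33.5 and 16.7 CPM, and the 3 later HET pigs (19, 20 and 21) were at 57.2, 72.9 and 58.2 CPM. The later HET mean exceeded the earlier mean 2.69-fold in SQLE, 2.12-fold in INSIG1, 2.11-fold in FDFT1, 2.06-fold in HMGCS1 and 1.98-fold in IDI1, and in each of these genes all 3 later pigs lay above all 3 earlier ones. This held for 5 of the 8 genes, against 13.7% of all genes tested, and the reverse order held for none of the 8 against 11.7%. The ratio was 1.55 in DHCR7, 1.396 in LSS and 1.26 in SREBF2, and there the sets overlapped. In CF the later-to-earlier ratio ran from 0.951 (SREBF2) to 1.37 (SQLE), and in WT from 0.771 (SREBF2) to 1.30 (INSIG1). The share of TPM taken by the most abundant non-coding RNA also separated the HET sets. It was 51.1%, 48.3% and 51.6% in pigs 13, 14 and 15, and 42.6%, 45.1% and 46.7% in pigs 19, 20 and 21. What differed between the sets is not given by the labels. Neither the HET difference between sets nor the part of this share in it was tested.

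Within each set the mean of CF was below that of WT in all 8 genes. In the earlier set the ratio of CF to WT ran from 0.585 (LSS) to 0.792 (INSIG1), and in the later set from 0.620 (IDI1) to 0.922 (SREBF2), where WT had only 2 pigs. For LSS against non-CF the log2 difference was -0.55 (adjusted p = 0.421) in the earlier set and -0.46 (adjusted p = 0.0790) in the later set, both by edgeR. For DHCR7 it was -0.50 (adjusted p = 0.424) and -0.51 (adjusted p = 0.212), but against WT it was -0.68 (adjusted p = 0.150) in the earlier and -0.21 (adjusted p = 0.803) in the later set. LSS differed from WT by -0.78 (adjusted p = 0.130) and -0.40 (adjusted p = 0.365). In HMGCS1 the difference from non-CF was -0.11 in the earlier and -0.44 in the later set, and in FDFT1 -0.12 and -0.42. The difference of the CF effect between sets was tested by an interaction term, which called 4 of all genes (0.0191%) and none of the 8, whose adjusted p was 0.755 or more. HET against WT and CF against HET were not steady between sets. In the earlier set 6 of the 8 genes had a higher fitted level in CF than in HET (all but LSS and DHCR7), and in the later set none had. In the later set 4 of the 8 (SQLE, LSS, SREBF2 and DHCR7) had a higher fitted level in HET than in WT, and in the earlier set none had.

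The 8 genes varied together across all 23 libraries, but not all of them did among the WT pigs alone. On log2 CPM over the 23 libraries, the 28 pairs of genes had Pearson correlations of 0.612 to 0.961 (median 0.831) and Spearman correlations of 0.571 to 0.949. The highest permutation p of any pair (two-sided, adjusted by Benjamini-Hochberg over the 28 pairs) was 0.00241 for Pearson and 0.00513 for Spearman. Leaving out the 2 libraries farthest from the median gave 0.579 to 0.947. Pearson correlations were 0.753 to 0.967 within the earlier set, 0.531 to 0.971 within the later set, and 0.636 to 0.935 after each genotype-by-set mean was removed. Among the CF pigs alone they were 0.728 to 0.971 (median 0.919) and among the HET pigs 0.618 to 0.996 (median 0.843). Among the WT pigs they were -0.807 to 0.970 (median 0.276). There SREBF2 had negative correlations with HMGCS1, SQLE, IDI1, FDFT1 and INSIG1, from -0.480 to -0.807. Pairs of other genes were not tested beside these. SQLE followed the mean of the other 7 most closely (r = 0.954), and SREBF2 least (r = 0.755). All points share their library, so depth and RNA composition are common to both axes.

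**Figure D3:**
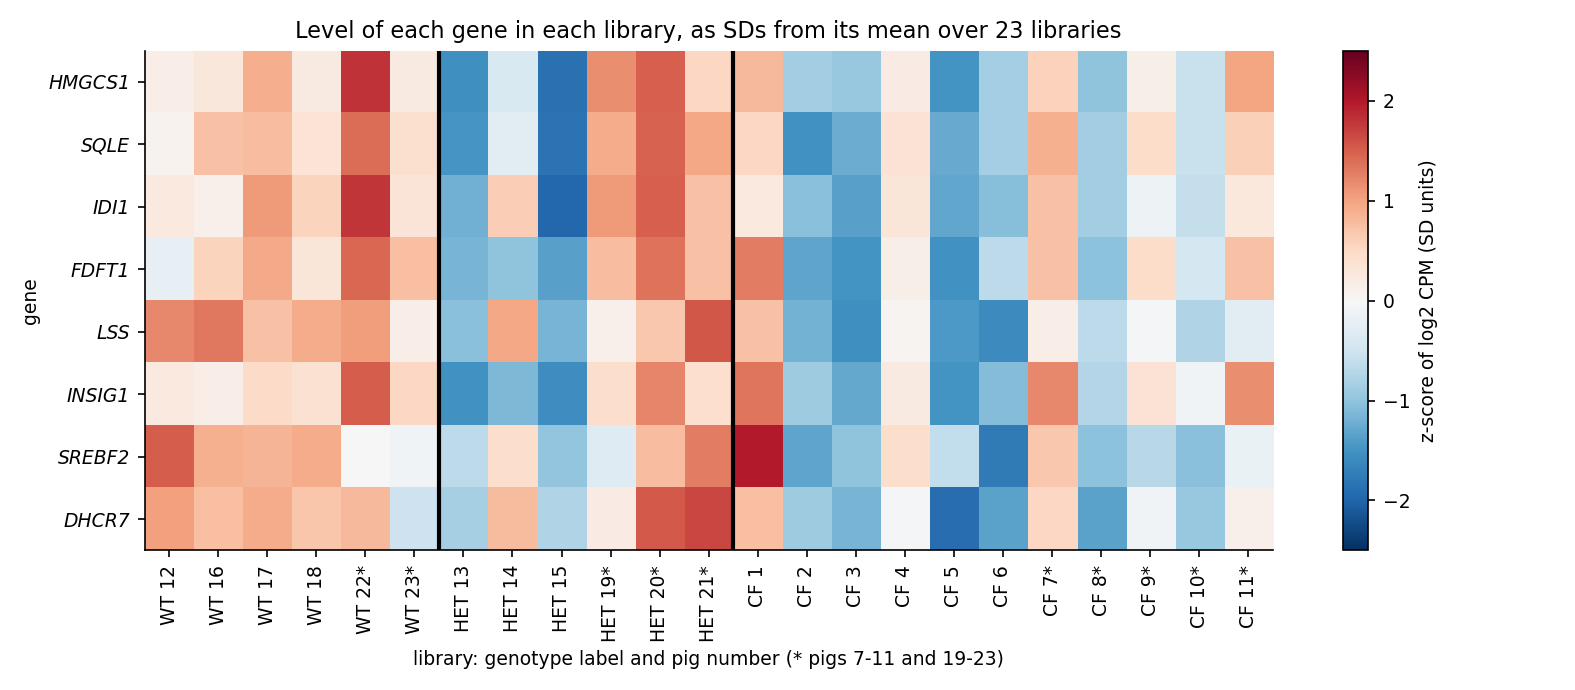
Level of each of the 8 genes in each of the 23 libraries as a z-score of log2 CPM, libraries grouped by genotype, with an asterisk on the later set of pig numbers. HET pigs 13 and 15 and CF pigs 2, 3, 5, 6 and 8 are low in most of the genes, and WT pigs 17 and 22 and HET pigs 20 and 21 are high in most.

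Ranked over the 8 genes, WT pig 22 (mean rank 3.25 of 23) and HET pig 20 (3.5) had the highest levels, and HET pig 15 (20.8), CF pig 5 (20.6) and CF pig 3 (20.4) the lowest. Of the CF pigs, pig 1 had the highest mean z-score (0.957), followed by pig 7 (0.687). The share of TPM taken by the most abundant non-coding RNA was 51.6% in HET pig 15, 53.2% in CF pig 5 and 51.1% in CF pig 3, and 42.1% in WT pig 22. Its group medians were 44.9% in WT, 47.5% in HET and 49.7% in CF. CF pig 4, whose 8 genes ranked in the middle, had 53.1%. RN18S, a ribosomal RNA left after depletion, took 7.11% of the counts in WT pig 12 and at most 0.510% in any other library, with group medians of 0.279% in WT, 0.151% in HET and 0.08995% in CF. The part of these shares in the results was not tested.

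Among genes outside the 8, those named here among the 10 most alike to the mean z-score of the 8 over the 23 libraries were FDPS (r = 0.952), TUBB (0.9497), LMNB2 (0.947), AACS (0.947), ACAT2 (0.946), CYP51 (0.945), RPN2 (0.915) and CDK2 (0.903). They were selected by this correlation, so it carries no test. FDPS and ACAT2 are mevalonate enzymes, CYP51 is a sterol demethylase, and AACS makes acetoacetyl-CoA in the cytosol. TUBB (a tubulin), LMNB2 (a lamin), RPN2 (a subunit of the glycosylation complex) and CDK2 (a cell-cycle kinase) belong to other processes. In the list of sterol export and storage 4 of 8 genes had a negative r, from -0.778 for ABCA1 and -0.695 for ABCG1, both exporters, to 0.680 for SOAT1, which makes cholesterol esters. For SREBF1, the gene of SREBP-1, r was -0.0958.

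Most other genes of the route were also lower in CF than in non-CF. Of 9 mevalonate genes, 8 had a lower fitted level (median log2 difference -0.27), and of 13 genes from squalene to cholesterol 13 had (median -0.29). Leaving out the 8 genes, 6 of 7 and 9 of 9 were lower, with medians of -0.22 and -0.20, beside 50.2% of all genes that were lower. None was called after adjustment by edgeR, against 0.349% of all genes. Without the 8 genes, 3 of 7 mevalonate and 3 of 9 sterol genes were lower at an unadjusted p under 0.05, against 6.36% of all genes. FDPS, which makes farnesyl diphosphate, was at 106 ± 21.9 CPM in WT, 103 ± 50.3 in HET and 65.2 ± 21.95 in CF (log2 difference from non-CF -0.68, SE 0.208, adjusted p = 0.124). MVK, mevalonate kinase, differed by -0.29 (SE 0.113, adjusted p = 0.240) and CYP51 by -0.51 (SE 0.188, adjusted p = 0.207). GGPS1, which draws farnesyl diphosphate off toward protein prenylation, was the mevalonate gene that was not lower (0.03).

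**Figure D4:**
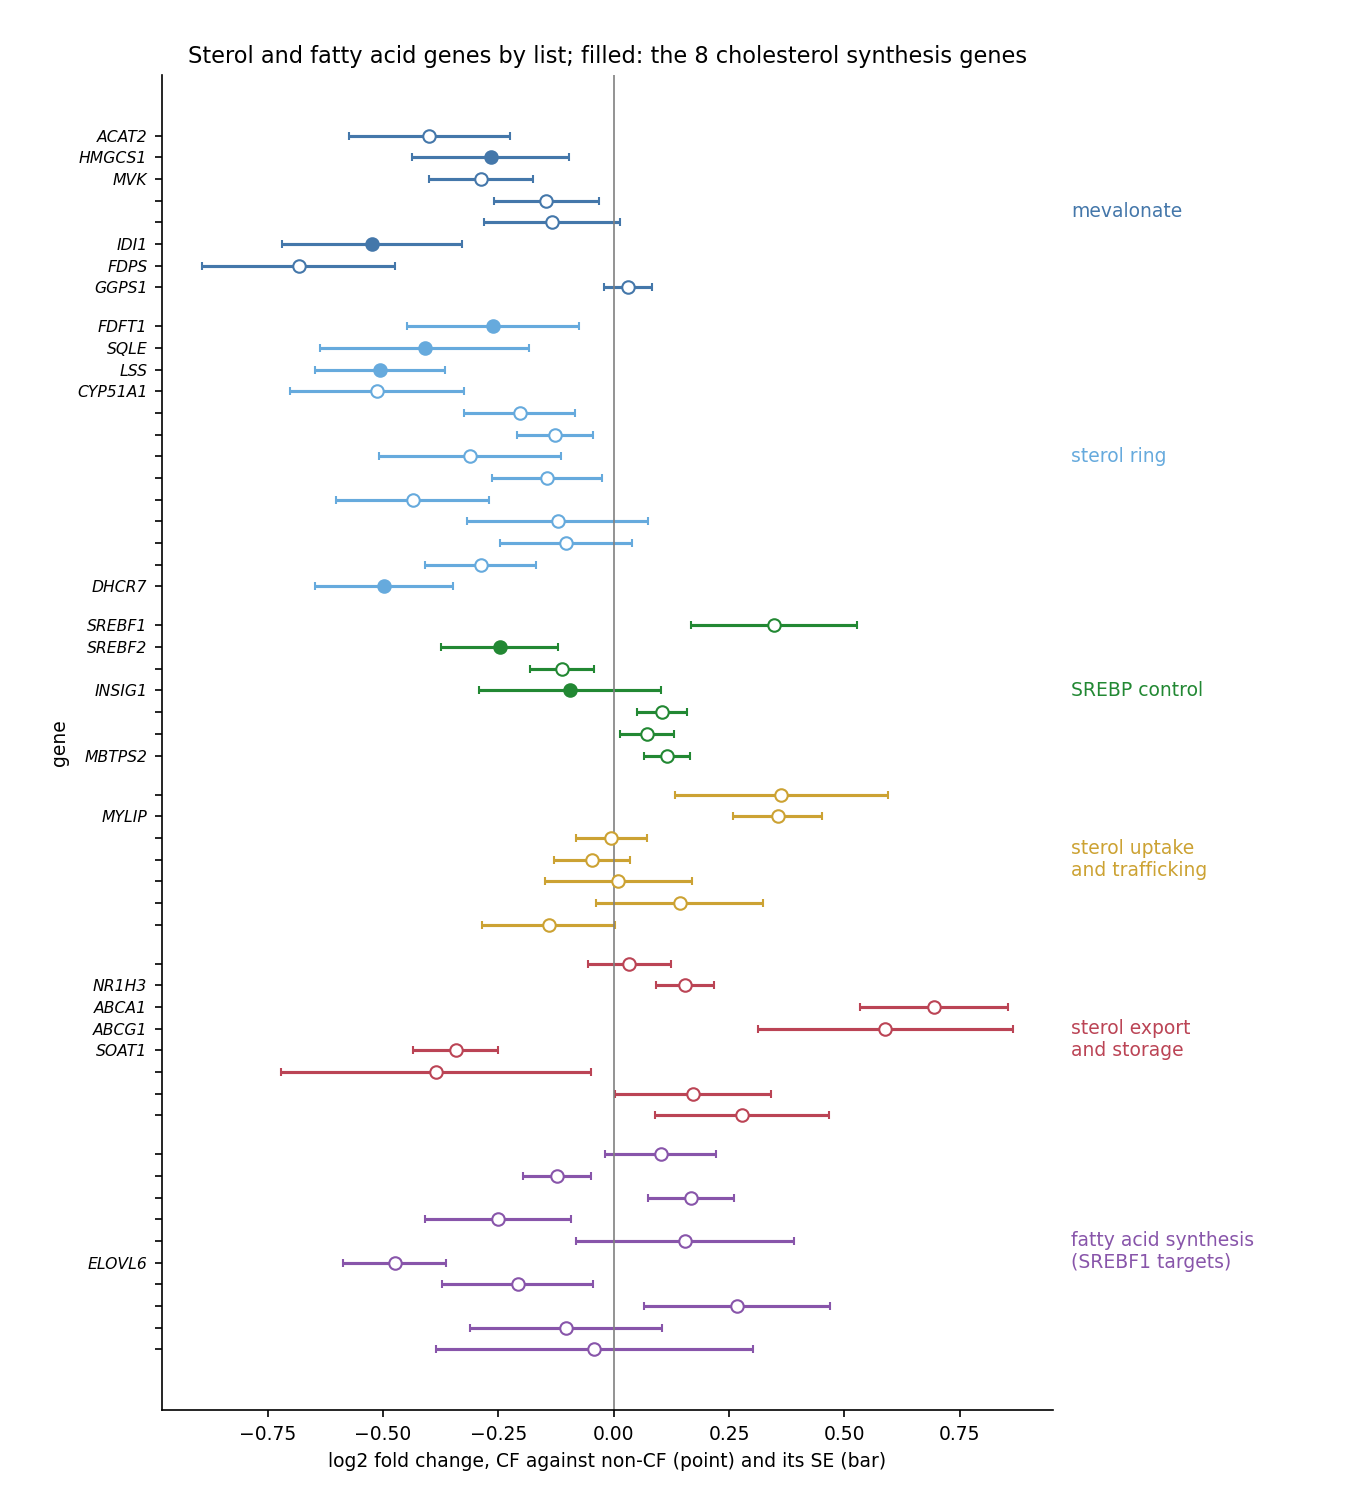
Log2 difference of CF from non-CF for each gene of 6 pathway lists; points are edgeR estimates, bars are their SE, filled points are the 8 genes, names mark the genes given in the text, and a few genes of the lists are not drawn. The mevalonate and squalene-to-cholesterol lists lie mostly below 0, and the export and storage list has 6 of 8 genes above 0.

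The control and transport genes did not share this direction. Of 7 genes of SREBP control 3 were lower in CF than in non-CF (median 0.07), and none was called after adjustment. MBTPS2, the site-2 protease, differed by 0.12 (SE 0.0498, adjusted p = 0.294) and SREBF1 by 0.35 (SE 0.179, adjusted p = 0.398). Of 8 genes of uptake and trafficking 4 were lower (median 0.00244), of 8 genes of export and storage 2 were lower (median 0.16), and of 10 fatty acid synthesis genes 6 were lower (median -0.07).

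By edgeR with TMM scaling, MYLIP and ELOVL6 passed the test after adjustment between CF and WT, and no gene of these lists did between CF and non-CF, where ELOVL6 was close to the threshold (-0.47, SE 0.112, adjusted p = 0.0535). With other settings ELOVL6 passed against non-CF too, with the set of pig numbers as a term (adjusted p = 0.0410), upper-quartile scaling (0.0415), the filter at 1 CPM (0.0447) and DESeq2 (0.00710), and MYLIP passed with DESeq2 (0.0307). In the later set alone both passed against non-CF by edgeR (ELOVL6 0.0108, MYLIP 0.0145), and in the earlier set alone neither did (0.573 and 0.677). MYLIP, a ubiquitin ligase that limits lipoprotein uptake, was at 28.6 ± 3.39 CPM in WT, 35.4 ± 5.24 in HET and 40.9 ± 6.64 in CF (SD, n = 6, 6 and 11). It was higher in CF than in WT by 0.52 on the log2 scale (SE 0.109, edgeR adjusted p = 0.0365). ELOVL6, a fatty acid elongase, was at 30.6 ± 3.73 CPM in WT, 25.2 ± 4.22 in HET and 20.1 ± 4.51 in CF, a log2 difference of CF from WT of -0.61 (SE 0.126, edgeR adjusted p = 0.0339). With each library left out in turn, MYLIP kept an adjusted p under 0.05 in 13 of 23 analyses and ELOVL6 in 16 of 23, and in either set of pigs alone both lost it. The log2 difference of MYLIP was 0.47 (adjusted p = 0.170) in the earlier and 0.57 (0.0861) in the later set, and that of ELOVL6 was -0.47 (0.155) and -0.77 (0.0672), again by edgeR. ABCA1, the cholesterol exporter, was at 118 ± 11.8 CPM in WT, 146 ± 67.9 in HET and 213 ± 50.4 in CF, and missed the threshold against non-CF (0.69, SE 0.160, adjusted p = 0.0508) and against WT (0.86, adjusted p = 0.0543). With the set of pig numbers as a term ABCA1 passed in both comparisons (edgeR adjusted p = 0.0226 against non-CF and 0.0210 against WT), as it did with the filter at 1 CPM (0.0439 and 0.0449) and DESeq2 (0.00417 and 0.00233). Over the alternative analyses its adjusted p ran from 0.00145 in the later set to 0.416 in the earlier set against non-CF, and from 0.00233 to 0.0836 against WT. SOAT1 differed from non-CF by -0.34 (SE 0.0923, adjusted p = 0.0832), and NR1H3, the sterol sensor LXR alpha, by 0.15 (SE 0.0635, adjusted p = 0.263).

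Markers of cell types were read beside these results. Distal tubule and loop of Henle markers summed to 1422 to 2169 CPM in WT, 1279 to 2360 in HET and 1218 to 1887 in CF, and 4 of 5 were lower in CF than in non-CF, with none called (CALB1 -1.40, SE 0.345, adjusted p = 0.0636). Proximal tubule markers summed to 7083 to 10491 CPM in WT, 8189 to 11749 in HET and 8219 to 14053 in CF, with 2 of 7 lower in CF. Collecting duct, podocyte and endothelial markers had 2 of 5, 2 of 5 and 2 of 4 lower, erythroid 2 of 4 and immune 2 of 3. Adrenal cortex markers, a steroid-making tissue next to the kidney, summed to 8.63 to 13.3 CPM in all, with 2 of 5 tested lower in CF. Adipose markers reached 43.6 CPM in WT pig 17 (1 of 3 lower in CF), and liver markers reached 30.6 CPM in HET pig 15. Against non-CF 4 of 4 liver markers were lower in CF, but against WT 3 of 4 were higher (ALB 1.09, AHSG 0.78 and TTR 0.21 on the log2 scale), and ALB was 3.74 higher in HET than in WT, with none called by edgeR. The part of the distal tubule and liver markers in the results was not tested.

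By TPM, 1 transcript made up 97.8% of LSS and 89.97% of SREBF2 over the 23 libraries, and INSIG1 had a single transcript. The leading transcript made up 68.3% of SQLE, 72.9% of FDFT1, 58.4% of DHCR7 and 44.5% of HMGCS1. In IDI1 a transcript annotated as non-coding took 41.0%, with 45.5% ± 8.86 in WT, 42.4% ± 16.5 in HET and 37.9% ± 10.03 in CF, so that its summed count holds non-coding reads too. These shares are estimates of a read assignment among overlapping transcripts and were not tested.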

How the data were processed

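Whole kidney cortex of newborn pigs was profiled by RNA-Seq of ribosomal RNA-depleted, stranded total RNA libraries, 1 per pig. The authors assigned reads to transcripts of the Sscrofa11.1 pig genome using kallisto and deposited an estimated count and a TPM value per transcript in each library, without pooling. Here estimated counts (64.0% of the transcript values were not whole) were summed per gene symbol over 77689 transcripts and rounded to whole numbers. TPM, which the authors scaled per effective length, was used for levels between genes and for transcript shares. CPM used library sizes scaled by TMM.

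Groups came from the genotype labels. Genes passing the default edgeR expression filter (20921) were tested with edgeR 4.0.16's quasi-likelihood test (glmQLFit) in R 4.3.3, with Benjamini-Hochberg adjustment over all genes and a threshold of 0.05. CF was compared with the pooled non-CF pigs, as in the study, and CF, HET and WT were compared in pairs. p-values measure the spread between these pigs, whose litters are not labelled. Intervals are 95%. Alternatives were DESeq2 1.42.0, limma-voom (limma 3.58.1), other scaling and filters, the set of pig numbers as a term or alone, each library left out, and an exact Mann-Whitney U test. The alternatives for MYLIP, ELOVL6 and ABCA1, and the counts of IDI1 and LSS over mRNA transcripts alone, were chosen after seeing the data. The scripts were tested on simulated counts.

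The 8 genes, the pathway and marker lists and the sets of pig numbers were chosen with earlier results of these data known. No count over a list or difference between sets is therefore independent evidence. Named besides the 8 were CFTR, in each pathway list the genes called or otherwise the 3 with the smallest p, and the 10 genes most alike to the 8. GGPS1, ABCG1 and the markers CALB1, ALB, AHSG and TTR were named for their values. Whether markers moved with the 8 was not tested. Correlations were tested by permutation of libraries. CYP51A1 and INSIG2 were taken under the symbols CYP51 and INSIG2_1. Some genes of these lists and of the most alike are not reported here by name, though they remain in the counts. Metabolite data of the study were not used here.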

Additional observations from a re-analysis of the deposited data

Results flagged for a closer look

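Among the 16 groups of 6 pigs tested (8 genes in WT and in HET), 2 held a pig far from the others by Dixon's criterion, which chance meets in about 1 in 20 groups. INSIG1 was at 68.6 CPM in WT pig 22, where the other WT pigs were between 42.5 and 48.0 CPM, a gap of 0.787 of the group's range (critical value 0.625). DHCR7 was at 15.01 CPM in WT pig 23, where the other WT pigs were between 22.02 and 24.5 CPM, a gap of 0.740 of the range. WT pig 22 was also the highest WT pig in HMGCS1, SQLE, IDI1 and FDFT1, and WT pig 23 was also the lowest in LSS and SREBF2.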

How the results depend on the processing

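All 8 genes stayed lower in CF than in non-CF and than in WT under each alternative, and which of them passed the threshold depended on the tool, the scaling, the set term and single libraries. The 8 genes called numbered 2 with DESeq2 for CF against non-CF, and 1 each with DESeq2, upper-quartile scaling and the set as a term for CF against WT. With a library left out 0 to 1 of the 8 were called in either comparison.

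Over all genes, 73 were called for CF against non-CF. The count was 488 with DESeq2, 46 with limma-voom, 150 with a filter at 1 CPM in 6 libraries, 148 with the set as a term, 0 in the earlier set, 473 in the later set and 46 with the Mann-Whitney test, which had 2432 genes at an unadjusted p under 0.05. It ran from 17 to 203 with a library left out. For CF against WT (73 genes) it was 576 with DESeq2, 139 with upper-quartile scaling, 140 with the 1 CPM filter, 186 with the set as a term and 33 in the earlier set, and 20 to 203 with a library left out. For HET against WT (1 gene) it was 33 with DESeq2, 14 in the earlier and 18 in the later set, and 1 to 4 with a library left out. For CF against HET (0 genes) it was 65 with DESeq2, 4 with median-of-ratios and 4 with upper-quartile scaling, 1 without a filter, 2 with the 1 CPM filter, 5 with the set as a term, 535 in the later set and 0 to 3 with a library left out. For the difference of the CF effect between sets (4 genes) DESeq2 gave 153. The causes were not tested.

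Signs turned for HET against WT in the later set (log2 differences SQLE 0.13, LSS 0.10, SREBF2 0.24, DHCR7 0.47), and for CF against HET in the earlier set (HMGCS1 0.36, SQLE 0.38, IDI1 0.0119, FDFT1 0.39, SREBF2 0.0606) and in the later set (INSIG1 -0.12). With a library left out they turned for DHCR7 in HET against WT (-0.15 to 0.0755), and in CF against HET for HMGCS1 (-0.27 to 0.0186), FDFT1 (-0.22 to 0.0608) and INSIG1 (-0.00556 to 0.30). With mRNA transcripts alone, IDI1 and LSS kept their direction and stayed above the threshold in all 4 comparisons. No paired analysis was possible because the labels do not give the litter of a library, so shared litters could not be taken into account. Each of the 8 genes had at least 419 counts in every library, and the later set held only 2 WT pigs, which limits its comparisons with WT.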
